A study of Homo sapiens with 18 samples.

Results

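The 36 genes described here belong to the integrated stress response, whose central transcription factor is ATF4, and to the unfolded protein response of the endoplasmic reticulum (ER). They were chosen by name and not by a threshold on their values. All 36 were found among the 30727 genes of the deposited table, and all passed the filter on low counts, which kept 17641 genes. RNA was sequenced in 18 libraries of PC9, a human lung adenocarcinoma line that depends on a mutant epidermal growth factor receptor (EGFR), with 3 libraries in each of 6 groups. Parental_DMSO cells received the solvent DMSO alone. Erlotinib_24h cells received 1 µM of the EGFR inhibitor erlotinib for 24 hours with no change of medium. DTP cells, or drug-tolerant persisters, were the cells that survived 8 days in 1 µM erlotinib, with medium and drug renewed every 3 days. Carboplatin_72h cells received 50 µM of carboplatin, a platinum compound that crosslinks DNA, for 72 hours with daily renewal. Trichostatin A (TSA), which inhibits histone deacetylases, was given at 50 nM for 5 hours with no change of medium to parental cells (parental_TSA) and to persisters (DTP_TSA). Whether erlotinib was still present during TSA in DTP cells is not stated in the labels.

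All groups come from this cell line, and the labels do not say that the replicates a, b and c were separate cultures. P-values therefore speak only of the spread among these libraries, which may be technical. Sorting for ALDH activity is also mentioned in the treatment text given for DTP, but since the titles do not name it, DTP was read as unsorted. The renewal of medium differed between the groups and cannot be told apart from the drug and its duration.

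In the integrated stress response, kinases such as PERK (encoded by EIF2AK3) phosphorylate the translation factor eIF2-alpha. General protein synthesis slows, while ATF4 messenger RNA is translated more. ATF4 and its partners then act on genes for amino acid synthesis and uptake and on the stress effectors TRIB3, CHAC1 and DDIT3. The ER has 3 sensors of misfolded protein, PERK, IRE1 (ERN1) and ATF6. IRE1 splices XBP1 messenger RNA, and spliced XBP1 and ATF6 act on genes for chaperones, folding enzymes and ER-associated degradation. A gene-level table does not separate spliced from unspliced XBP1, and messenger RNA levels do not report ATF4 translation.

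Gene reads numbered from 32139343 to 128293531 per library. The library DTP_TSA a stood apart, with 46% of its reads from the ERCC spike-in RNA and 7.09% from ribosomal RNA, against at most 0.763% and 3.36% in the others. Its log-scale levels correlated with its mates at 0.9268 and 0.9275, against 0.9938 between them. Parental_TSA a, which held the 0.763%, also differed from its mates, at 0.9822 and 0.9758 against 0.9913 between them. The standard errors below rest on a spread estimated over all groups together. All 6 epithelial markers checked (EPCAM, CDH1 and the keratins KRT7, KRT8, KRT18 and KRT19) were expressed in every group, with summed levels of 3990 to 8470 CPM (counts per 1000000 gene reads). Of 6 fibroblast markers, 5 were under 1 CPM in every group and COL1A1 ran from 4.66 to 30.5 CPM. Of the endothelial markers, the sum over 5 genes ran from 17.5 to 118 CPM with the highest values in erlotinib_24h, and of 6 blood cell markers only CD68 was over 1 CPM outside erlotinib_24h, where LYZ reached 1.51 CPM. The part of these marker levels in the results was not tested.

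The response elements through which these pathways act are short, and the promoters below show those found in the members. The promoters are RefSeq windows on GRCh38.p14, from 250 bases before to 50 bases after each start, and 34 of the 36 members had one. The ER stress response element (ERSE) was searched on both strands as CCAAT, 9 further bases and CCACG, ERSE-II as ATTGG, 1 further base and CCACG, and the C/EBP-ATF response element (CARE) as TGATGNAA. Among 35116 promoters of this length, 27 (0.0769%) held an ERSE, 19 (0.0541%) an ERSE-II and 1270 (3.62%) a CARE. Counted by gene, as the members are, 25 of 27305 genes (0.0916%) held an ERSE, 19 (0.0696%) an ERSE-II and 1217 (4.46%) a CARE. Of the 34 members, 7 held an ERSE (XBP1, HSPA5, HSP90B1, CALR, CANX, PDIA6 and CRELD2), 2 an ERSE-II (HERPUD1 and SDF2L1) and 6 a CARE (ATF3, CEBPG, CHAC1, ASNS, SLC7A1 and HERPUD1). A match describes letters in this window and is not a site of binding.

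The first set shows ERSE matches in 4 genes, 3 of chaperones or folding enzymes and 1 of a transcription factor. Scaled to gene reads, HSPA5 and CALR changed in the same directions under the 3 drug treatments, while PDIA6 and XBP1 did not follow them in all 3. Sequences run 5′ to 3′ on the gene's strand, with the match in capitals.
HSPA5: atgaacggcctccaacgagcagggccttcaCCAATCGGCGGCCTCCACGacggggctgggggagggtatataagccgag
CALR: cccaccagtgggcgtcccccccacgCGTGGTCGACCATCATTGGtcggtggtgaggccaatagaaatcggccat
PDIA6: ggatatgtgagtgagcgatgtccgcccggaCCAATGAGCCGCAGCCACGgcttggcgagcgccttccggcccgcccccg
XBP1: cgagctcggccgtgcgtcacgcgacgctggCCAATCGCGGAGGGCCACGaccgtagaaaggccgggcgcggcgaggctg
The HSPA5 stretch lies at chr9:125241361-125241439 on the minus strand, CALR at chr19:12938359-12938432 on the plus strand with the match on the opposite strand, PDIA6 at chr2:10812823-10812901 on the minus strand and XBP1 at chr22:28800573-28800651 on the minus strand. The HSPA5 match begins 66 bases before the start and the XBP1 match 52 bases before it.

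The second set shows the ERSE-II and CARE matches of HERPUD1, whose messenger RNA was higher under all 3 drug treatments, and CARE matches in genes of the ATF4 branch that rose most (ATF3, CHAC1), rose less (ASNS) or fell under erlotinib (CEBPG).
HERPUD1 ERSE-II: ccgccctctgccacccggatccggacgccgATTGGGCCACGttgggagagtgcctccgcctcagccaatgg
HERPUD1 CARE: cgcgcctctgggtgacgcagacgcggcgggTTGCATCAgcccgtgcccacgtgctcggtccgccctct
ATF3: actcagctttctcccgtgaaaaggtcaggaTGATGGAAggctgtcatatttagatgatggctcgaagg
CHAC1: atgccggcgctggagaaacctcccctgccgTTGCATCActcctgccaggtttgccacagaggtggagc
ASNS: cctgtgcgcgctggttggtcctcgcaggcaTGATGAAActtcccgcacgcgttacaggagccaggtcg
CEBPG: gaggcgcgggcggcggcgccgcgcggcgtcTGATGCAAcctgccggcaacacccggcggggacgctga
They lie at chr16:56931995-56932065 and chr16:56931936-56932003 (HERPUD1, plus strand), chr1:212565186-212565253 (ATF3, plus), chr15:40953232-40953299 (CHAC1, plus), chr7:97872439-97872506 (ASNS, minus) and chr19:33374041-33374108 (CEBPG, plus). In HERPUD1 and CHAC1 the CARE match is on the opposite strand. The HERPUD1 matches do not overlap, since the CARE ends 169 bases before the start and the ERSE-II begins 117 bases before it.

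Changes are given as log2 fold changes ± standard error from a quasi-likelihood model over all 17641 genes, with 3 libraries a group and adjusted p under 0.05 as the threshold. Levels are CPM scaled to gene reads (TMM), and differ between genes also through their length. Spike-ins were added in proportion to cells, and scaling to them, without DTP_TSA a, moved the median change of all genes from 0.11 to -0.23 in erlotinib_24h, from 0.06 to 0.72 in carboplatin_72h and from 0.06 to 0.16 in DTP. It moved the median from 0.03 to 0.48 for DTP against erlotinib_24h, from -0.02 to -1.03 for erlotinib_24h against carboplatin_72h, from -0.02 to -0.58 for DTP against carboplatin_72h and from -0.08 to 0.11 for TSA in DTP cells. Spike-in reads per 100 gene reads ran from 0.524 to 0.539 in parental_DMSO, 0.53 to 0.565 in DTP, 0.699 to 0.76 in erlotinib_24h and 0.321 to 0.417 in carboplatin_72h. Values called spike-in scaled below use this scaling, under which 18094 genes passed the filter. Many standard errors were larger under it, as for HSPA5 in DTP (0.17 against 0.05), and some smaller, as for DDIT3 there (0.14 against 0.18). A value that did not pass spike-in scaled may thus be only less precise, and is not shown to be absent.

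**Figure D1:**
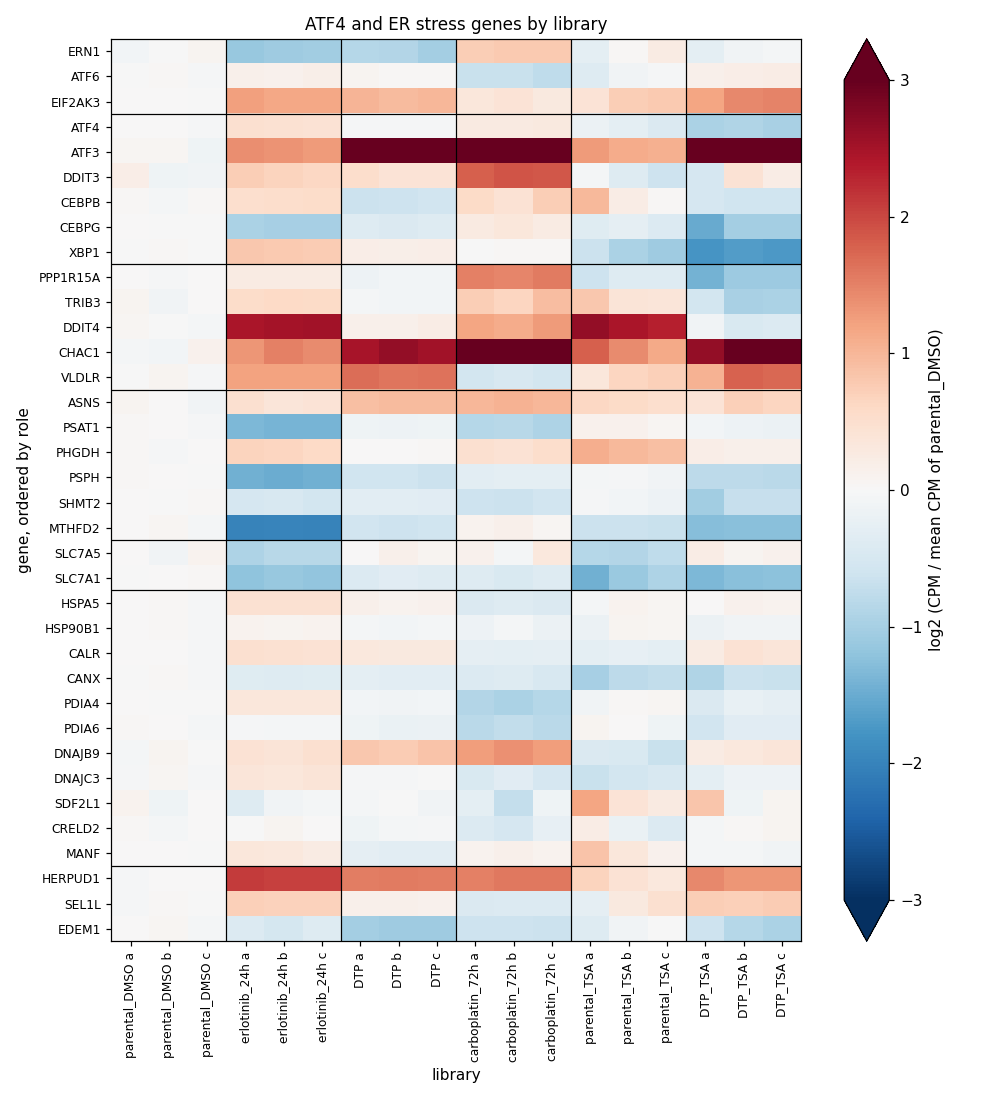
Log2 of each library's CPM over the mean CPM of parental_DMSO, for the 36 genes (rows, by role) and 18 libraries (columns, by group); colours saturate at -3 and 3. ATF3 and CHAC1 are higher in every treated library than in parental_DMSO, while MTHFD2, PSPH and PSAT1 are lowest in erlotinib_24h.

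The 3 drug treatments were compared with parental_DMSO to ask how drug-treated and drug-tolerant populations differ from the parental one. After 24 hours of erlotinib the 5 stress effectors and 5 of 6 transcription factors rose, of which 3 and 2 stayed higher when scaled to the spike-ins, and 4 of 6 amino acid and one-carbon enzymes and both amino acid transporters fell. In DTP cells ATF3 and CHAC1 were further up, while ATF4, DDIT4, TRIB3 and PPP1R15A did not pass the threshold. After carboplatin ATF3, CHAC1, DDIT3 and PPP1R15A reached their highest levels of the series, and 7 of 11 ER chaperones fell at gene-read scaling, none of which passed as lower against the spike-ins. These comparisons share the parental_DMSO libraries.

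After 24 hours of erlotinib, 21 of the 36 members were higher, where 36.6% of all genes tested were, and 10 were lower, where 32.7% were; the median member changed by 0.35 and the median gene by 0.11. In DTP cells 11 were higher (31% of all genes) and 12 lower (27.8%), with medians of -0.05 and 0.06. After carboplatin 16 were higher (30.3% of all genes) and 15 lower (28.6%), with medians of 0.06 and 0.06. The shares of members that changed in either direction were 86.1%, 63.9% and 86.1%. Spike-in scaled, 7 members were higher (25.8% of all genes under that scaling) and 13 lower (39.8%) after 24 hours of erlotinib, 9 higher (31.1%) and 5 lower (17.8%) in DTP, and 21 higher (58.7%) and 0 lower (6.7%) after carboplatin. The 15 members lower after carboplatin were therefore lower at gene-read scaling, and none passed as lower against the spike-ins.

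Of the sensors, EIF2AK3 was at 25.3, 25.5 and 25 CPM in parental_DMSO, 59.3, 57.0 and 56.8 in erlotinib_24h, 51.3, 49.0 and 50.1 in DTP and 31.9, 33.4 and 31.2 in carboplatin_72h. All treated libraries lay above all parental ones, with changes of 1.19 ± 0.09, 0.99 ± 0.09 and 0.35 ± 0.09 (adjusted p = 2.54e-09, 5.22e-08 and 0.003). ERN1 was at 30.1, 31.9 and 34.1 CPM in parental_DMSO, 14.5, 15.2 and 15.6 in erlotinib_24h, 17.8, 17.3 and 15.8 in DTP and 53.3, 55.2 and 54.7 in carboplatin_72h. Its level was lower in both erlotinib groups (-1.09 ± 0.11 and -0.92 ± 0.11) and higher after carboplatin (0.76 ± 0.10, adjusted p = 7.71e-06), directions that held spike-in scaled (-1.45, -0.83 and 1.42). ATF6 was lower after carboplatin by -0.70 ± 0.07, which shrank to -0.05 spike-in scaled, and missed the threshold in erlotinib_24h (0.15, adjusted p = 0.0701) and DTP (0.05, adjusted p = 0.546).

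ATF4, the transcription factor of the integrated stress response (Entrez 468, chr22:39520559-39522686), was at 352, 348 and 341 CPM in parental_DMSO and 340, 340 and 337 in DTP. It was at 483, 475 and 469 CPM in erlotinib_24h and 421, 415 and 424 in carboplatin_72h. The erlotinib_24h and carboplatin_72h libraries were all above the parental ones (0.45 ± 0.06, adjusted p = 1.19e-06, and 0.27 ± 0.06, adjusted p = 0.000405), while DTP differed by -0.03 ± 0.06 (adjusted p = 0.616). Spike-in scaled, the values were 0.09 (adjusted p = 0.56), 0.92 (adjusted p = 1.6e-05) and 0.06, so that the rise at 24 hours was lost and that after carboplatin was larger.

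ATF3, a stress-induced factor of the same family (Entrez 467, chr1:212565407-212620777), had the widest range of all members, with a mean level 19.9 times as high in carboplatin_72h as in parental_DMSO. It was at 4.06, 4.11 and 3.61 CPM in parental_DMSO, 10.3, 9.95 and 9.53 in erlotinib_24h, 33.1, 31.9 and 32.4 in DTP and 78.8, 79.5 and 76.8 in carboplatin_72h. No libraries of these 4 groups overlapped. The changes from parental_DMSO were 1.34 ± 0.08 at 24 hours of erlotinib, 3.05 ± 0.09 in DTP and 4.32 ± 0.09 after carboplatin (adjusted p = 2.57e-10, 2.28e-14 and 4.97e-15).

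DDIT3, which encodes the pro-apoptotic factor CHOP, was at 6.42, 5.16 and 5.24 CPM in parental_DMSO and 19.5, 20.6 and 20.4 in carboplatin_72h, a change of 1.85 ± 0.18 (adjusted p = 1.85e-07). It was 0.67 ± 0.18 higher in erlotinib_24h (adjusted p = 0.00323), where its spike-in-scaled value of 0.31 did not pass (adjusted p = 0.0642). Its 0.45 ± 0.18 in DTP (adjusted p = 0.0411) missed the threshold, at adjusted p = 0.0505 to 0.127, when any of 12 single libraries was left out or the replicate letter was a block. The DTP value of DDIT3 passed spike-in scaled, at 0.54 ± 0.14 (adjusted p = 0.00465). CEBPB, a partner of ATF4, was higher in erlotinib_24h (0.52 ± 0.16) and carboplatin_72h (0.59 ± 0.16) and lower in DTP (-0.61 ± 0.16). Spike-in scaled, its 24-hour value was 0.16 and did not pass (adjusted p = 0.214), while the others held (1.23 and -0.52). CEBPG, another partner, was at 65.6, 65.1 and 64.9 CPM in parental_DMSO, 33.7, 32.6 and 32.6 in erlotinib_24h and 49.8, 48.1 and 50.0 in DTP. It thus fell in the erlotinib groups (-0.98 ± 0.09 and -0.40 ± 0.09) and rose after carboplatin (0.28 ± 0.09). Spike-in scaled, the DTP value of -0.31 did not pass (adjusted p = 0.133), and the others held (-1.35 at 24 hours and 0.93 after carboplatin).

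XBP1, the target of IRE1, was at 74.9, 76.9 and 74.8 CPM in parental_DMSO, 133, 131 and 128 in erlotinib_24h, 86.9, 85.4 and 86.8 in DTP and 74.5, 77.8 and 77.4 in carboplatin_72h. It rose by 0.79 ± 0.08 at 24 hours (adjusted p = 9.15e-08) and by 0.19 ± 0.08 in DTP (adjusted p = 0.0413), and changed by 0.02 ± 0.08 after carboplatin (adjusted p = 0.847). Spike-in scaled, the carboplatin value was 0.67 and passed the threshold, the 24-hour value was 0.43 and the DTP value of 0.28 did not pass (adjusted p = 0.082).

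**Figure D2:**
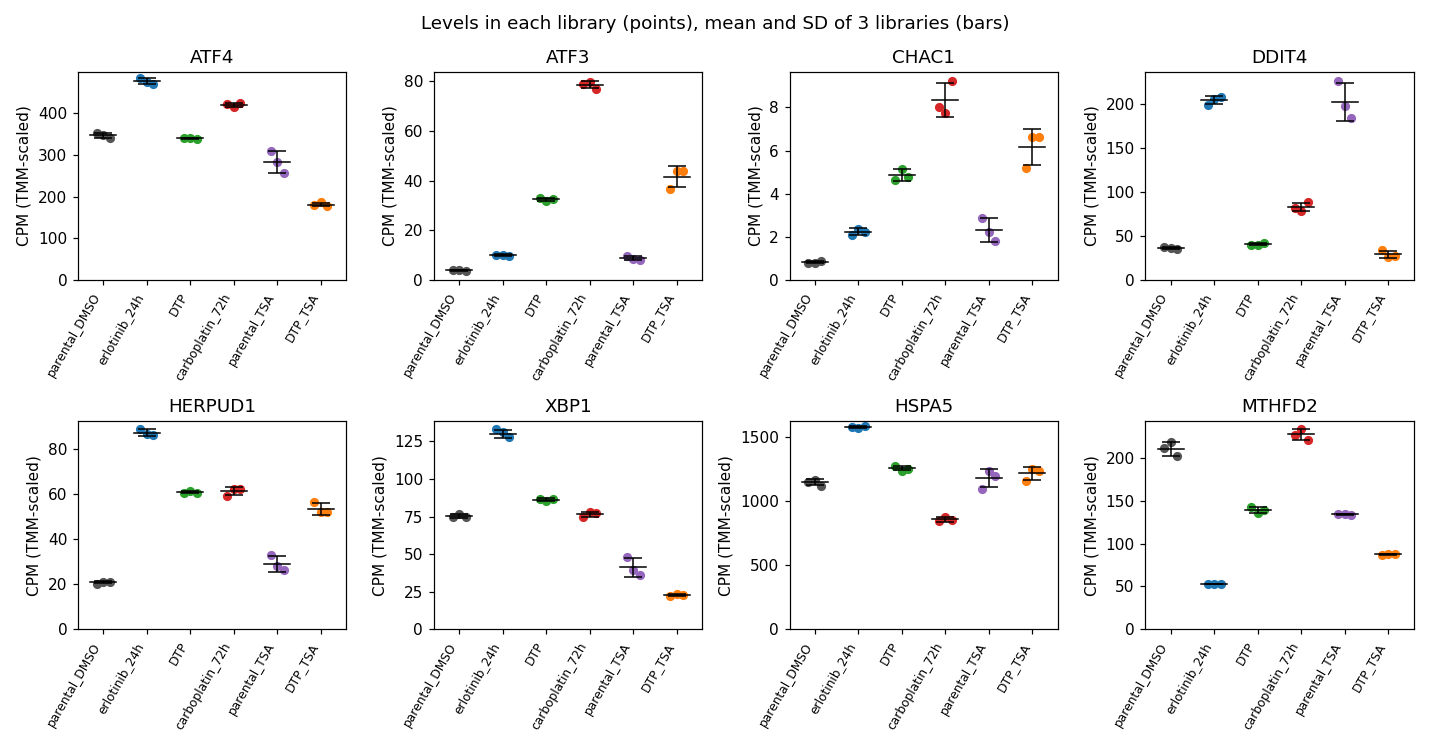
CPM (TMM-scaled) of 8 members in each library (points) with the mean and SD of the 3 libraries of a group (bars); the y axes start at 0. ATF3 and CHAC1 are highest in carboplatin_72h, DDIT4 is highest in erlotinib_24h and parental_TSA, and MTHFD2 is lowest in erlotinib_24h.

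The 5 effectors and feedback genes were all higher after 24 hours of erlotinib. DDIT4, an inhibitor of the growth kinase mTORC1 (Entrez 54541, chr10:72273924-72276036), was at 38.2, 36.1 and 35.1 CPM in parental_DMSO and 199, 206 and 209 in erlotinib_24h. It was at 40.3, 40.3 and 42.8 CPM in DTP and 82.5, 78.9 and 88.6 in carboplatin_72h. The changes were 2.49 ± 0.09 at 24 hours, the largest rise of a member there (adjusted p = 2.08e-13), 0.17 ± 0.09 in DTP (adjusted p = 0.103) and 1.19 ± 0.09 after carboplatin (adjusted p = 5.44e-09). CHAC1, which degrades glutathione (Entrez 79094), was at 0.804, 0.795 and 0.91 CPM in parental_DMSO, 2.08, 2.39 and 2.24 in erlotinib_24h, 4.64, 5.16 and 4.78 in DTP and 8.00, 7.75 and 9.22 in carboplatin_72h. The groups did not overlap and their order was that of ATF3, with changes of 1.42 ± 0.17, 2.54 ± 0.17 and 3.31 ± 0.17 (adjusted p = 9.76e-07, 1.15e-09 and 6.1e-11).

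VLDLR, a lipoprotein receptor, was higher in both erlotinib groups (1.21 ± 0.14 at 24 hours and 1.64 ± 0.14 in DTP) and lower after carboplatin (-0.54 ± 0.14), where its value was 0.11 and did not pass spike-in scaled. PPP1R15A, the phosphatase subunit GADD34 that reverses eIF2-alpha phosphorylation, was at 82.6, 80.1 and 81.7 CPM in parental_DMSO and 233, 225 and 240 in carboplatin_72h (1.51 ± 0.08, adjusted p = 6.03e-11). It differed by 0.25 ± 0.08 at 24 hours (adjusted p = 0.00882; -0.11 and not past the threshold spike-in scaled) and by -0.10 ± 0.08 in DTP (adjusted p = 0.295). TRIB3, a pseudokinase that restrains ATF4, rose by 0.57 ± 0.12 at 24 hours and 0.77 ± 0.12 after carboplatin, and differed by -0.08 ± 0.12 in DTP (adjusted p = 0.59). Spike-in scaled, its 24-hour value of 0.21 did not pass (adjusted p = 0.124) and its carboplatin value was 1.41.

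Of the 6 enzymes, 4 fell and 2 rose after 24 hours of erlotinib. MTHFD2, a mitochondrial enzyme of folate metabolism, was at 211, 218 and 202 CPM in parental_DMSO, 52.5, 53.3 and 52.7 in erlotinib_24h, 142, 136 and 139 in DTP and 226, 233 and 220 in carboplatin_72h. Its change of -1.99 ± 0.04 at 24 hours (adjusted p = 4.05e-16) was the largest fall of a member there, against -0.60 ± 0.04 in DTP and 0.11 ± 0.04 after carboplatin (adjusted p = 0.0381). The serine synthesis enzymes went separate ways at 24 hours: PSPH changed by -1.46 ± 0.04 and PSAT1 by -1.38 ± 0.05, while PHGDH, which catalyses the first step, rose by 0.63 ± 0.05 (0.27 and not past the threshold spike-in scaled). SHMT2, which makes glycine from serine, changed by -0.51 ± 0.07. The falls of these 4 enzymes were larger spike-in scaled (-2.36, -1.82, -1.75 and -0.87).

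In DTP cells PSPH (-0.62 ± 0.04), SHMT2 (-0.32 ± 0.07) and PSAT1 (-0.13 ± 0.05, adjusted p = 0.0227) were lower and PHGDH differed by 0.02 ± 0.05 (adjusted p = 0.764). Spike-in scaled, SHMT2 (-0.23) and PSAT1 (-0.04) did not pass. After carboplatin PSAT1 (-0.87 ± 0.05), SHMT2 (-0.61 ± 0.07) and PSPH (-0.29 ± 0.04) were lower, none of which passed spike-in scaled (-0.22, 0.04 and 0.36), and PHGDH was higher (0.47 ± 0.05). ASNS, asparagine synthetase, was at 23.1, 22.2 and 20.4 CPM in parental_DMSO, 30.6, 28.4 and 29.2 in erlotinib_24h, 40.9, 42.6 and 42.5 in DTP and 44.0, 45.2 and 43.6 in carboplatin_72h. It was higher in all treated libraries (0.43 ± 0.08, 0.94 ± 0.08 and 1.02 ± 0.08), though its 24-hour value was 0.07 and did not pass spike-in scaled.

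The amino acid transporters fell at 24 hours. SLC7A5, the large neutral amino acid carrier LAT1, was at 374, 348 and 401 CPM in parental_DMSO, 196, 210 and 210 in erlotinib_24h, 375, 415 and 394 in DTP and 412, 362 and 469 in carboplatin_72h. The change was -0.87 ± 0.08 at 24 hours (adjusted p = 5.04e-08), and the DTP and carboplatin libraries overlapped the parental range (0.08 ± 0.08 and 0.15 ± 0.08, adjusted p = 0.443 and 0.135). Spike-in scaled, SLC7A5 was higher after carboplatin (0.78, adjusted p = 0.000449). SLC7A1, a carrier of arginine and lysine, changed by -1.18 ± 0.09 at 24 hours, -0.38 ± 0.08 in DTP and -0.41 ± 0.08 after carboplatin, of which the last 2 did not pass spike-in scaled (-0.29 and 0.23). Its CARE match extends past the start and is not printed here.

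The 11 ER chaperones and folding enzymes moved less. At 24 hours of erlotinib 6 were higher, 1 was lower and 4 did not pass (median 0.30). In DTP 3 were higher, 3 lower and 5 did not pass (median -0.07). After carboplatin 1 was higher, 7 were lower and 3 did not pass (median -0.39). Spike-in scaled, these counts turned to 0 higher and 4 lower at 24 hours, 2 and 0 in DTP and 4 and 0 after carboplatin, so the direction of the group depended on the scaling. Of all genes, 36.6% were higher and 32.7% lower at 24 hours, 31% and 27.8% in DTP and 30.3% and 28.6% after carboplatin. Spike-in scaled, these shares were 25.8% and 39.8%, 31.1% and 17.8%, and 58.7% and 6.7%.

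HSPA5, the chaperone BiP that holds the sensors inactive (Entrez 3309, chr9:125234853-125241343), was at 1150, 1170 and 1120 CPM in parental_DMSO, 1580, 1570 and 1590 in erlotinib_24h, 1280, 1240 and 1250 in DTP and 846, 879 and 853 in carboplatin_72h. The 4 groups did not overlap, with changes of 0.46 ± 0.05 (adjusted p = 3.34e-07), 0.13 ± 0.05 (adjusted p = 0.0335) and -0.42 ± 0.05 (adjusted p = 2e-06). Spike-in scaled, none of these passed (0.10, 0.22 and 0.23, each ± 0.17), though the DTP value was larger than at gene-read scaling. The DTP value also missed the threshold without any of the 6 DTP or parental_DMSO libraries (0.11 to 0.15, adjusted p = 0.0501 to 0.118 with the setting of no filter included). CALR, the calcium-binding chaperone calreticulin, rose at 24 hours and in DTP (0.46 ± 0.05 and 0.31 ± 0.05) and fell after carboplatin (-0.27 ± 0.05). Spike-in scaled, its 24-hour value of 0.10 did not pass (adjusted p = 0.585), and it was higher in DTP (0.40) and after carboplatin (0.38).

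PDIA4, a disulfide isomerase, was higher at 24 hours (0.34 ± 0.06) and lower after carboplatin (-0.89 ± 0.06, adjusted p = 7.13e-10), and PDIA6 was lower in DTP (-0.17 ± 0.06) and after carboplatin (-0.79 ± 0.06), and none of these passed spike-in scaled (-0.02 and -0.25 for PDIA4, -0.08 and -0.13 for PDIA6). PDIA6 at 24 hours differed by -0.05 and was lower spike-in scaled (-0.41, adjusted p = 0.0191). CANX, calnexin, was lower in all 3 (-0.36 ± 0.07, -0.32 ± 0.07 and -0.42 ± 0.07), of which only the 24-hour fall passed spike-in scaled (-0.72), and the carboplatin value turned to 0.23. DNAJC3, an inhibitor of PERK, was higher at 24 hours (0.36 ± 0.06) and lower after carboplatin (-0.43 ± 0.06), and spike-in scaled its values were 0.00 and 0.22 with neither past the threshold.

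DNAJB9, a co-chaperone that restrains IRE1, was the chaperone that rose under all 3 treatments: it was at 17.2, 18.9 and 17.9 CPM in parental_DMSO, 24.3, 23.4 and 25 in erlotinib_24h, 31.7, 30.4 and 32.4 in DTP and 42.9, 46.8 and 43.2 in carboplatin_72h. The changes were 0.43 ± 0.07, 0.81 ± 0.07 and 1.30 ± 0.07 (adjusted p = 4.43e-05, 4.12e-08 and 1.33e-10), and the 24-hour value was 0.07 and did not pass spike-in scaled. MANF, a secreted ER protein, was higher at 24 hours (0.30 ± 0.12) and lower in DTP (-0.30 ± 0.12, adjusted p = 0.036), and neither passed spike-in scaled (-0.06 and -0.21). MANF was higher after carboplatin (0.77) spike-in scaled, where it had not passed at gene-read scaling (0.12). At gene-read scaling CRELD2 was lower after carboplatin alone (-0.39 ± 0.11), and HSP90B1 and SDF2L1 passed in none of the 3 comparisons. Spike-in scaled, CRELD2 was lower at 24 hours (-0.33, adjusted p = 0.0161) and not past the threshold after carboplatin (0.25), HSP90B1 was higher after carboplatin (0.53, adjusted p = 0.0196) and SDF2L1 was lower at 24 hours (-0.54, adjusted p = 0.00129). HSP90B1, the chaperone GRP94, varied least of all members, with a fold of 1.17 between its highest and lowest group means.

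HERPUD1, which helps to assemble the ER degradation machinery (Entrez 9709, chr16:56932142-56944864), was at 20.4, 21.2 and 21.0 CPM in parental_DMSO, 89.1, 86.7 and 86.4 in erlotinib_24h, 60.8, 61.5 and 60.5 in DTP and 59.4, 62.6 and 62.2 in carboplatin_72h. Every treated library was above every parental one, with changes of 2.06 ± 0.07, 1.55 ± 0.07 and 1.56 ± 0.07 (adjusted p = 1.04e-13, 9.31e-12 and 1.25e-11) that stayed past the threshold spike-in scaled (1.70, 1.64 and 2.21). SEL1L, the adaptor of the ubiquitin ligase of this pathway, rose at 24 hours (0.71 ± 0.12; 0.35 and not past the threshold spike-in scaled) and fell after carboplatin (-0.41 ± 0.12; 0.24 spike-in scaled). EDEM1, which hands misfolded glycoproteins to degradation, was at 39.5, 41.3 and 37.7 CPM in parental_DMSO and 19.4, 18.9 and 19.0 in DTP. It was lower under all 3 treatments (-0.44 ± 0.09, -1.05 ± 0.09 and -0.63 ± 0.09), of which the carboplatin value was 0.02 spike-in scaled.

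**Figure D3:**
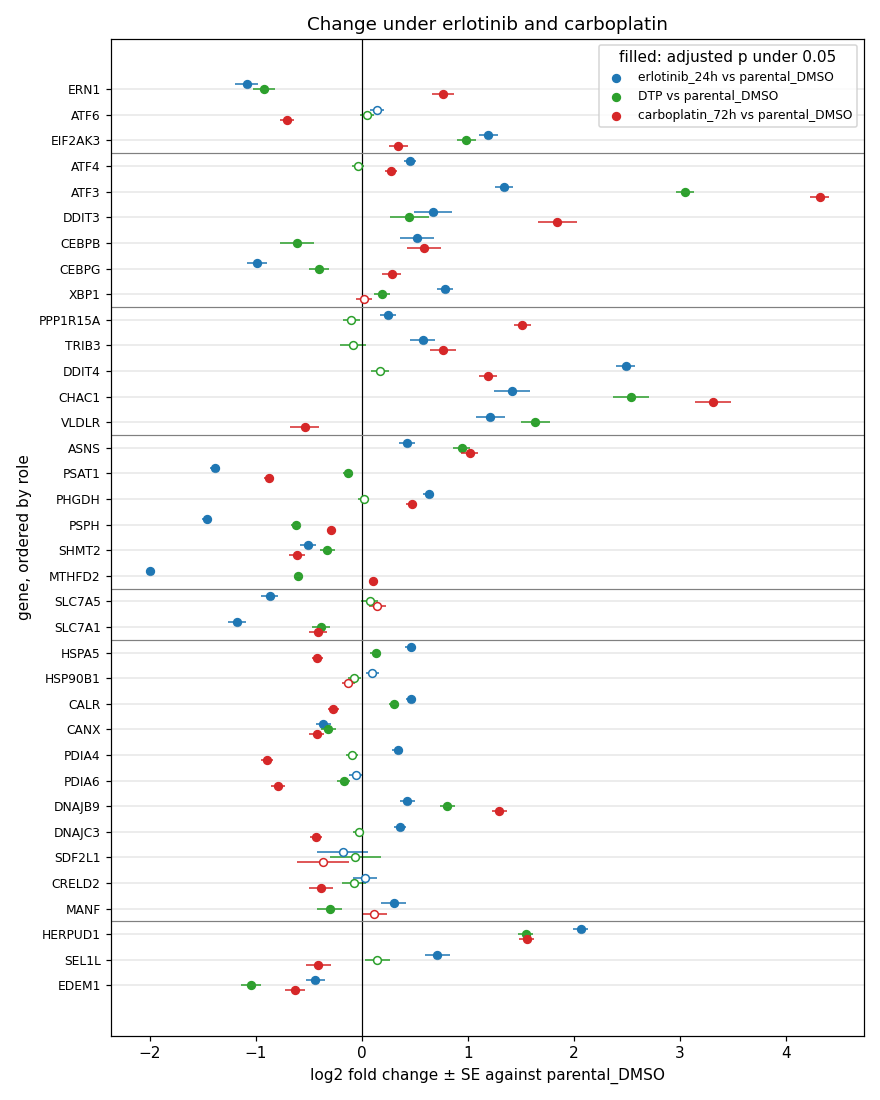
Log2 fold change ± SE against parental_DMSO for each member after 24 hours of erlotinib, in DTP and after carboplatin, with filled points where the adjusted p was under 0.05. ATF3, CHAC1 and HERPUD1 lie to the right of 0 in all 3 comparisons, EDEM1, CANX, PSPH, SHMT2 and SLC7A1 lie to the left in all 3, and ERN1 changes side with carboplatin.

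Several small calls of these comparisons lay near the threshold and were lost when single libraries were left out. For XBP1 in DTP and MTHFD2 after carboplatin these included libraries of groups not compared. In DTP, XBP1 (0.18 to 0.21), MANF (-0.31 to -0.29), PSAT1 (-0.13 to -0.11) and PDIA6 (-0.17 to -0.16) missed the threshold without 12, 6, 5 and 4 single libraries (adjusted p up to 0.0976, 0.0838, 0.0973 and 0.0927). After carboplatin the rise of MTHFD2 was lost without any of 14 libraries (0.06 to 0.11, adjusted p up to 0.335) and that of CEBPG without parental_DMSO a or carboplatin_72h b (0.23 to 0.26, adjusted p up to 0.0794). The rise of MANF at 24 hours was lost without 5 libraries (0.28 to 0.30).

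The calls of members that share promoter letters were counted at both scalings. Of all genes, 36.6% were higher and 32.7% lower at 24 hours of erlotinib, and 30.3% and 28.6% after carboplatin. Spike-in scaled, these shares were 25.8% and 39.8%, and 58.7% and 6.7%. Of the 7 members with an ERSE, 3 were higher, 1 lower and 3 did not pass at 24 hours of erlotinib, and 0 were higher, 5 lower and 2 did not pass after carboplatin. Spike-in scaled, 1 (XBP1) was higher and 3 lower at 24 hours, and 3 (XBP1, HSP90B1 and CALR) were higher and 0 lower after carboplatin. Of the 6 with a CARE, 4 were higher and 2 (CEBPG and SLC7A1) lower at 24 hours, and 5 were higher and 1 (SLC7A1) lower after carboplatin; spike-in scaled, 3 were higher and 2 lower, and 5 and 0. HERPUD1, with an ERSE-II, rose in each of these at both scalings, and SDF2L1, the other member with one, passed only at 24 hours spike-in scaled, as lower.

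Genes of the same pathways outside the 36 members were counted from lists that were also chosen with earlier results known. Of all genes, 36.6% were higher and 32.7% lower at 24 hours, 31% and 27.8% in DTP and 30.3% and 28.6% after carboplatin. Spike-in scaled, these shares were 25.8% and 39.8%, 31.1% and 17.8%, and 58.7% and 6.7%. Of 12 aminoacyl-tRNA synthetases, which charge transfer RNAs and include ATF4 targets, 2 were higher and 8 lower at 24 hours of erlotinib (median -0.65), 2 and 5 in DTP (median -0.11) and 2 and 7 after carboplatin (median -0.16). Spike-in scaled, the counts higher and lower were 0 and 9, 1 and 4, and 7 and 0. The direction after carboplatin turned (median 0.50), where the median of all genes moved from 0.06 to 0.72. TARS1 changed at 24 hours by -1.37 ± 0.06 and IARS1 by -1.34 ± 0.06, and both stayed lower against the spike-ins. Of 19 further ATF4 targets tested, 7 were higher and 10 lower at 24 hours, 10 and 6 in DTP and 9 and 8 after carboplatin. Spike-in scaled, these counts were 7 and 12, 10 and 5, and 13 and 1. They held some of the largest changes: CTH, which makes cysteine, rose by 3.57 ± 0.07 at 24 hours and 1.77 ± 0.07 after carboplatin, STC2, a secreted glycoprotein, changed by -2.51 ± 0.05 at 24 hours, and GDF15, a stress cytokine, rose by 4.51 ± 0.22 after carboplatin.

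Of 26 further unfolded protein response genes tested, 10 were higher and 8 lower at 24 hours, 12 and 7 in DTP, and 6 and 15 after carboplatin (median -0.34). Spike-in scaled, the counts were 6 and 12, 8 and 1, and 11 and 1. The median after carboplatin turned to 0.32, where that of all genes moved from 0.06 to 0.72. At 24 hours 36.6% of all genes were higher and 32.7% lower. After carboplatin 30.3% and 28.6% were, or 58.7% and 6.7% spike-in scaled. ATF6B, a relative of ATF6, rose by 1.41 ± 0.06 at 24 hours and changed by -1.07 ± 0.06 after carboplatin, and both directions passed against the spike-ins (1.04 and -0.43). Of the other 3 eIF2-alpha kinases, EIF2AK2, activated by double-stranded RNA, changed at 24 hours by -1.29 ± 0.12 and EIF2AK4, activated by amino acid shortage, by -0.78 ± 0.13. EIF2AK1 rose by 0.36 ± 0.05, which did not pass spike-in scaled (adjusted p = 0.992).

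DTP cells were compared with erlotinib_24h, both in 1 µM erlotinib, to see how the surviving population differed from cells early in treatment. The enzymes and transporters that were low at 24 hours were higher in DTP, ATF3 and CHAC1 were higher still, and DDIT4, XBP1, ATF4, 6 of 11 chaperones and the 3 degradation genes were lower at gene-read scaling. Of the members, 12 were higher, where 30.5% of all genes were, and 16 lower, where 24.8% were. The comparison shares its libraries with those against parental_DMSO. ATF3 differed by 1.71 ± 0.08, MTHFD2 by 1.39 ± 0.04, PSAT1 by 1.25 ± 0.05, CHAC1 by 1.12 ± 0.16, SLC7A5 by 0.95 ± 0.08, PSPH by 0.84 ± 0.04, SLC7A1 by 0.80 ± 0.09 and CEBPG by 0.58 ± 0.09. DDIT4 differed by -2.32 ± 0.09 (adjusted p = 1.51e-12), CEBPB by -1.13 ± 0.16, TRIB3 by -0.65 ± 0.12, PHGDH by -0.61 ± 0.05, MANF by -0.61 ± 0.12, EDEM1 by -0.61 ± 0.09, XBP1 by -0.59 ± 0.08 and SEL1L by -0.56 ± 0.12. ATF4 differed by -0.49 ± 0.06 (adjusted p = 8.97e-07) and HSPA5 by -0.33 ± 0.05 (adjusted p = 2.82e-05).

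Spike-in scaled, the 8 members named as higher stayed higher, while of those named as lower only DDIT4 (-1.86) and CEBPB (-0.68) passed; ATF4 was at -0.04 and HSPA5 at 0.12. The count became 16 higher, where 47% of all genes were, and 2 lower, where 11.2% were. The chaperones turned to 4 higher and 0 lower, and none of the degradation genes passed. Among the small calls at gene-read scaling, HSP90B1 (-0.17) and SHMT2 (0.18) were lost without any of the 6 libraries compared (adjusted p = 0.0534 to 0.0897 and 0.0562 to 0.115), and CALR (-0.15) without erlotinib_24h a (adjusted p = 0.0565). None of the 3 sensors passed in this comparison at gene-read scaling, and EIF2AK3 and ERN1 differed by -0.20 ± 0.09 (adjusted p = 0.0586) and 0.17 ± 0.11 (adjusted p = 0.193). Of the 12 aminoacyl-tRNA synthetases 8 were higher and 2 lower in DTP (median 0.42), led by GARS1 at 0.85 ± 0.06, and 10 and 0 spike-in scaled.

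The erlotinib groups were also set against carboplatin_72h, though the drugs, doses and times differ. Erlotinib_24h had 16 members higher (33.3% of all genes) and 13 lower (34% of all genes) than carboplatin_72h, and DTP had 12 higher (30.9%) and 16 lower (29.4%). Spike-in scaled, erlotinib_24h had 1 higher (12.2% of all genes) and 25 lower (65.8%), and DTP 1 higher (14.4%) and 23 lower (51.9%), the higher member being VLDLR in both. Both erlotinib groups were lower than carboplatin_72h for ATF3 (-2.98 ± 0.08 and -1.27 ± 0.08), CHAC1 (-1.89 ± 0.16 and -0.78 ± 0.15), ERN1 (-1.85 ± 0.11 and -1.68 ± 0.11), DDIT3 (-1.17 ± 0.18 and -1.40 ± 0.18) and PPP1R15A (-1.27 ± 0.08 and -1.61 ± 0.08). They were higher for VLDLR (1.75 ± 0.14 and 2.17 ± 0.14), PDIA4 (1.23 ± 0.06 and 0.80 ± 0.06), SEL1L (1.12 ± 0.12 and 0.56 ± 0.12), HSPA5 (0.88 ± 0.05 and 0.55 ± 0.05) and ATF6 (0.85 ± 0.07 and 0.75 ± 0.07). Spike-in scaled, the lower calls held and VLDLR stayed higher (0.74 and 1.61), but the other 4 did not pass in either comparison and HSPA5 was at -0.14 and -0.01.

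ATF4 was 0.18 ± 0.06 higher in erlotinib_24h than in carboplatin_72h and 0.31 lower in DTP (-0.31 ± 0.06), and spike-in scaled it was lower in both (-0.83 and -0.86). Of the 11 chaperones, 7 were higher and 1 lower in erlotinib_24h than in carboplatin_72h (33.3% and 34% of all genes). In DTP 6 were higher and 2 lower (30.9% and 29.4%). Spike-in scaled, the counts turned to 0 and 6 (12.2% and 65.8% of all genes), and 0 and 4 (14.4% and 51.9%). The DTP call of CRELD2 (0.32) was lost without any of 4 single libraries (0.29 to 0.31, adjusted p up to 0.0693). MTHFD2 was lower in both erlotinib groups (-2.10 ± 0.04 and -0.71 ± 0.04), while PSAT1 was lower at 24 hours (-0.51 ± 0.05) and higher in DTP (0.74 ± 0.05; 0.18 and not past the threshold spike-in scaled).

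TSA was given to parental and to DTP cells for 5 hours to compare the populations' responses to histone deacetylase inhibition. In parental cells DDIT4, CHAC1, ATF3 and PHGDH rose and the transporters, XBP1, CANX and MTHFD2 fell. In DTP cells XBP1, PPP1R15A, ATF4 and SLC7A1 fell most, ERN1 and SEL1L rose, and DDIT4 fell. In parental cells 12 members were higher, where 30.8% of all genes were, and 11 lower, where 27.4% were. In DTP cells 6 were higher, where 25.6% of all genes were, and 17 lower, where 30.7% were. Without DTP_TSA a the counts in DTP were 5 and 16, and without replicate a of both TSA groups, a setting chosen after seeing the data, they were 15 and 14 in parental and 10 and 17 in DTP cells. Leaving out both a libraries also narrowed standard errors of members, for XBP1 in DTP cells from 0.08 to 0.04. Shares of all genes under these settings are not given here, so these counts are not read as a result about the members. Spike-in scaled the counts were 12 (27.4% of all genes) and 8 (19.5%) in parental and 6 (24.6%) and 7 (14.3%) in DTP cells.

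**Figure D4:**
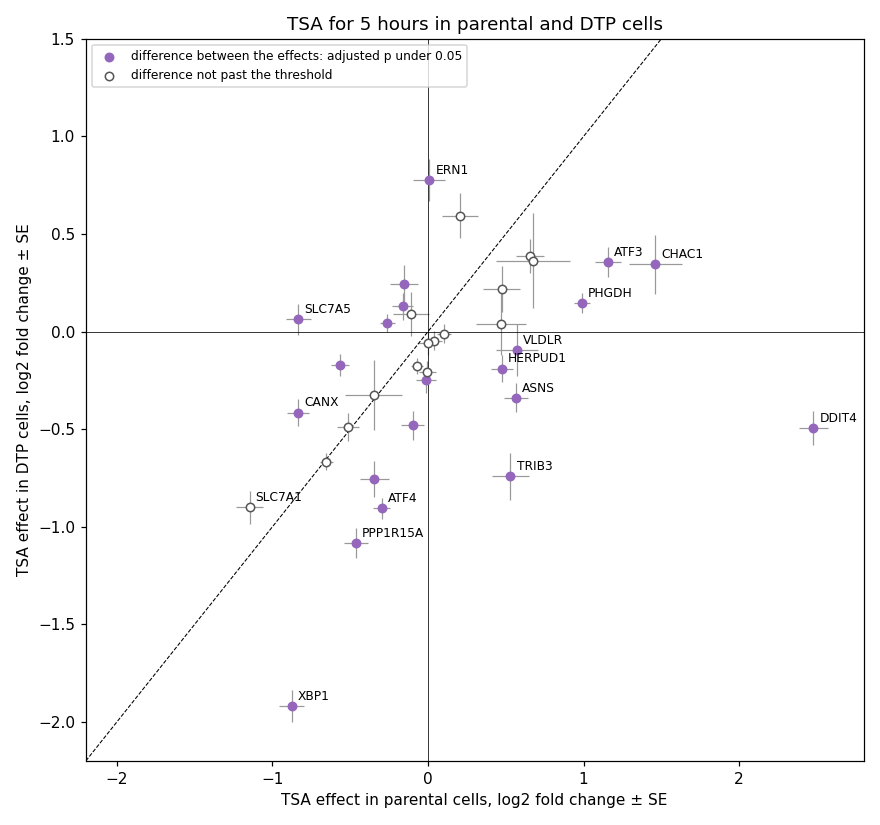
Log2 fold change ± SE with TSA in parental cells (x axis) and DTP cells (y axis) for the 36 members, with filled points where the difference between both effects had an adjusted p under 0.05; the dashed line marks equal effects. DDIT4 lies at 2.48 on the x axis and -0.49 on the y axis, and XBP1 is the lowest point at -1.92.

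With TSA, DDIT4 was at 227, 198 and 185 CPM in parental_TSA against 38.2, 36.1 and 35.1 in parental_DMSO, and at 34.0, 26.4 and 27.5 in DTP_TSA against 40.3, 40.3 and 42.8 in DTP. It rose in parental cells by 2.48 ± 0.09 (adjusted p = 2.2e-12) and changed in DTP cells by -0.49 ± 0.09 (adjusted p = 0.00015), with no overlap between treated and untreated libraries. Both directions held spike-in scaled (2.46 and -0.46) and without both a libraries (2.39 and -0.62). The difference between both effects was -2.97 ± 0.13 (adjusted p = 9.6e-11).

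XBP1 was at 48.5, 39.2 and 35.9 CPM in parental_TSA and 22.2, 23.6 and 22.8 in DTP_TSA, below all untreated libraries of either population. It changed by -0.88 ± 0.08 in parental and -1.92 ± 0.08 in DTP cells, and the difference of -1.04 ± 0.11 (adjusted p = 2.23e-06) passed the threshold. ATF4 was at 308, 283 and 256 CPM in parental_TSA and 179, 186 and 177 in DTP_TSA. Its changes were -0.30 ± 0.06 and -0.91 ± 0.06, which differed by -0.61 ± 0.08 (adjusted p = 1.57e-05), and spike-in scaled the parental fall of -0.31 and the difference of -0.44 did not pass (adjusted p = 0.067 and 0.15).

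Across both TSA comparisons, 3 members rose in both (EIF2AK3, ATF3 and PHGDH) and 9 fell in both (ATF4, CEBPG, XBP1, PPP1R15A, MTHFD2, SLC7A1, CANX, DNAJB9 and DNAJC3). A further 4 rose in parental and fell in DTP cells (DDIT4, TRIB3, ASNS and HERPUD1), and 0 did the opposite. Shares of all genes with each combination are not given here, so these counts are not read as a result about the members. Spike-in scaled, 2 of the 3 still rose in both (EIF2AK3 and ATF3) and 3 of the 9 still fell in both (XBP1, MTHFD2 and SLC7A1). ATF4 and PPP1R15A did not pass in parental cells, PHGDH, CANX, DNAJB9 and DNAJC3 did not pass in DTP cells, and CEBPG passed in neither. CHAC1, which rose in parental cells at both scalings, did not pass in DTP cells at gene-read scaling (0.34). In DTP cells CHAC1 passed as higher spike-in scaled, and at gene-read scaling without DTP_TSA a (0.44, adjusted p = 0.0136). Of the 4 with opposite directions, ASNS (-0.11) and HERPUD1 (-0.09) did not pass in DTP cells spike-in scaled, while TRIB3 held (0.50 and -0.74). TRIB3 changed by 0.53 ± 0.12 and -0.74 ± 0.12, ASNS by 0.57 ± 0.08 and -0.34 ± 0.08, and HERPUD1 by 0.48 ± 0.07 and -0.19 ± 0.07 (adjusted p = 0.0276). The fall of HERPUD1 in DTP cells missed the threshold without DTP b, DTP_TSA b or DTP_TSA c (-0.19 to -0.17), and that of DNAJC3 without DTP_TSA a (-0.14, adjusted p = 0.0522).

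In parental cells the other large rises were CHAC1 (1.46 ± 0.17), ATF3 (1.16 ± 0.08), PHGDH (0.99 ± 0.05), SDF2L1 (0.67 ± 0.24), EIF2AK3 (0.65 ± 0.09) and VLDLR (0.57 ± 0.14). SDF2L1, a cofactor of BiP, was at 18.3 CPM in parental_TSA a and at 10.7 and 9.78 in its mates, against 8.63, 7.40 and 8.19 in parental_DMSO, and without parental_TSA a its value was 0.34 (adjusted p = 0.19). It also missed the threshold without parental_DMSO b or c (0.34 to 0.68 over these settings). CEBPB was likewise at 104 CPM in that library and 62.2 and 54.9 in its mates, and its rise of 0.47 ± 0.16 was 0.13 and did not pass without it (adjusted p = 0.128). The largest falls were SLC7A1 (-1.15 ± 0.09), XBP1, CANX (-0.84 ± 0.07), SLC7A5 (-0.83 ± 0.08), MTHFD2 (-0.65 ± 0.04), DNAJC3 (-0.56 ± 0.06), DNAJB9 (-0.52 ± 0.07) and PPP1R15A (-0.46 ± 0.08). HSPA5 differed by 0.04 ± 0.05 (adjusted p = 0.505), and by 0.09 (adjusted p = 0.0113) without both a libraries.

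In DTP cells the 6 members that rose were ERN1 (0.78 ± 0.11), SEL1L (0.59 ± 0.12), EIF2AK3 (0.39 ± 0.09), ATF3 (0.36 ± 0.08), EDEM1 (0.25 ± 0.09) and PHGDH (0.15 ± 0.05). EDEM1 was 0.14 and not past the threshold (adjusted p = 0.181) without DTP_TSA a and also missed it without 5 other single libraries, and PHGDH missed it without that library or any DTP library (adjusted p = 0.0545 to 0.137 with the setting of no filter included); neither passed spike-in scaled (0.29 and 0.28). After XBP1, the largest falls were PPP1R15A (-1.08 ± 0.08), ATF4, SLC7A1 (-0.90 ± 0.09), CEBPG (-0.75 ± 0.09), TRIB3, MTHFD2 (-0.67 ± 0.04) and DDIT4. PPP1R15A was at 30.4, 38.5 and 38.5 CPM in DTP_TSA against 73.6, 77.6 and 77.1 in DTP. HSPA5 differed by -0.05 ± 0.05 (adjusted p = 0.457). Of the 11 chaperones 0 rose and 5 fell (25.6% and 30.7% of all genes), and 1 and 0 did spike-in scaled (24.6% and 14.3%).

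The test of the difference between both TSA effects called 7 members, where 15.3% of all genes were called, as more positive in DTP cells and 14 as more negative, where 23% were. All 5 effectors had a more negative effect in DTP cells, at -0.62 ± 0.11 (PPP1R15A), -0.67 ± 0.19 (VLDLR), -1.12 ± 0.23 (CHAC1), -1.27 ± 0.17 (TRIB3) and -2.97 ± 0.13 (DDIT4); spike-in scaled, PPP1R15A (-0.41) and VLDLR (-0.37) did not pass. Among the others with a more negative effect were ASNS (-0.90 ± 0.11), PHGDH (-0.84 ± 0.07), ATF3 (-0.80 ± 0.11) and HERPUD1 (-0.66 ± 0.10), of which PHGDH alone passed spike-in scaled (-0.70). The effect was more positive in DTP cells for SLC7A5 (0.90 ± 0.12), which fell in parental and changed by 0.06 ± 0.08 in DTP cells, and for ERN1 (0.77 ± 0.15), which changed by 0.01 ± 0.10 in parental cells; spike-in scaled, SLC7A5 held (0.98) and ERN1 did not pass (0.93, adjusted p = 0.0671). HSPA5 had a difference of -0.09 ± 0.07 (adjusted p = 0.362), which passed the threshold without parental_TSA a or without both a libraries (-0.14 to -0.11). Without DTP_TSA a the counts were 6 and 13, without both a libraries 10 and 17, and spike-in scaled 1 (6% of all genes) and 5 (9.02%). For the settings that only leave out a libraries, shares of all genes are not given here.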

How the data were processed

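Polyadenylated RNA of 18 PC9 libraries was measured by sequencing. Per the submitters' processing notes, the expected counts (estimated reads per gene) that the authors deposited come from Salmon. For its version and settings, the build and the annotation: not given in the sources used here. The gene table is not scaled between libraries; 3 of its columns match no sample and were not used. Symbols were matched through NCBI identifiers for 27814 of 30727 genes. Expected counts were rounded, filtered with edgeR's expression filter and scaled by TMM. All 18 libraries entered 1 model with group terms, which left 12 residual degrees of freedom, tested with the quasi-likelihood F-test in edgeR 4.0.16 under R 4.3.3. Benjamini-Hochberg adjustment ran over 17641 genes within each of 9 contrasts. Per-gene precision rests on 32139343 to 128293531 gene reads a library.

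The members and the lists were chosen with earlier results of these data known. Named in each comparison were up to 8 members per direction with the largest changes among those past the threshold, and always ATF4 and HSPA5; outside the members, up to 3 genes per list with the smallest p. Other members are given so that all 36 are accounted for. Alternatives were DESeq2 1.42.0, its size factors, no filter, at least 1 CPM in 3 libraries, a replicate block (the letter), only the compared groups in the fit, spike-in library sizes and each library left out. Spike-in sizes without DTP_TSA a, and the TSA groups without their a libraries, were chosen after seeing the data. The fit was tested on simulated data for DTP against parental_DMSO (17046 genes): 66 of 67 genes changed by 1 on the log2 scale were called, 18 of 66 changed by 0.5, and 4 of 16846 unchanged ones. The simulation gave every gene the same spread, held no outlying library and changed only genes above a minimum level. Its rates therefore describe that setting and not the spreads of these libraries. Across 45 pairs of groups and letters, same-letter libraries' deviations correlated between -0.0509 and 0.079, and across 90 different-letter pairs between -0.076 and 0.0662. No pairing by letter was thus seen in these levels, and whether same-letter libraries shared a culture or batch was not tested. Reads of the near-identical copies SLC7A5P1, SLC7A5P2 and MTHFD2P1 came to at most 0.142% of those of their gene. Figures used matplotlib 3.10.9.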

Additional observations from a re-analysis of the deposited data

Results flagged for a closer look

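The effect of TSA differed between DTP and parental cells for 21 members by the test of the difference itself (edgeR, adjusted p under 0.05 over all genes; 3 libraries a group). Of all genes tested, 15.3% were called as more positive in DTP cells and 23% as more negative. The values are the log2 effect in DTP cells minus that in parental cells. The effect was more negative in DTP cells for DDIT4 (-2.97), TRIB3 (-1.27), CHAC1 (-1.12), XBP1 (-1.04), ASNS (-0.90), PHGDH (-0.84), ATF3 (-0.80), VLDLR (-0.67), HERPUD1 (-0.66), PPP1R15A (-0.62), ATF4 (-0.61), CEBPG (-0.41), SHMT2 (-0.38) and PDIA6 (-0.24). It was more positive for SLC7A5 (0.90), ERN1 (0.77), CANX (0.42), EDEM1 (0.40), DNAJC3 (0.40), CALR (0.31) and ATF6 (0.29). ATF6 fell to 0.19 (adjusted p = 0.0159) without parental_TSA a and missed the threshold without any of 6 other single libraries (0.27 to 0.29). EDEM1 missed it without any of 4 libraries (0.29 to 0.39) and PDIA6 without any of 15 (-0.26 to -0.17). Scaled to the spike-ins without DTP_TSA a, 6 of these passed: DDIT4 (-2.92), TRIB3 (-1.24), XBP1 (-0.85), CHAC1 (-0.83), PHGDH (-0.70) and SLC7A5 (0.98). Under that scaling 6% of all genes were called as more positive and 9.02% as more negative.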

How the results depend on the processing

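Under DESeq2, its size factors, both other filters, the replicate block, the groups compared alone and each library left out, every count of changed members stayed within 1.5 times its main value. These are counts of members alone, without the share of all genes in each setting. The counts ran from 17 to 28 for DTP against parental_DMSO (main 23), 30 to 35 for erlotinib_24h (31), 29 to 34 for carboplatin_72h (31), 21 to 26 for parental_TSA (23), 20 to 26 for DTP_TSA against DTP (23), 25 to 34 for DTP against erlotinib_24h (28), 29 to 33 for erlotinib_24h against carboplatin_72h (29), 27 to 31 for DTP against carboplatin_72h (28) and 18 to 25 for the difference in TSA effects (21). With the replicate block the counts were 22, 31, 31, 23, 23, 27, 29, 28 and 20 in the same order. The labels do not say what libraries of the same letter share, and the block moved no count by more than 1.5 times.

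Scaling to the spike-ins of all libraries, DTP_TSA a included, left 0, 0, 1, 0, 0, 0, 1, 0 and 0 members past the threshold in that order. Without DTP_TSA a that scaling gave 14 for DTP and 20 for erlotinib_24h against parental_DMSO, 13 for DTP_TSA against DTP, 18 for DTP against erlotinib_24h and 6 for the difference in TSA effects. Signs turned as follows, with the value from all libraries first and that without DTP_TSA a second where both turned. For DTP against parental_DMSO ATF4 was 0.0573 in both. For carboplatin_72h against parental_DMSO VLDLR was 0.11 in both, SHMT2 0.0364 and 0.0363, HSPA5 0.23 in both, DNAJC3 0.22 in both, and EDEM1 0.0201 and 0.0196. For DTP against erlotinib_24h HSPA5 was 0.12 in both. For erlotinib_24h against carboplatin_72h ATF6 was -0.16, EIF2AK3 -0.17, ATF4 -0.83, HSPA5 -0.14 and DNAJC3 -0.22 in both. For DTP against carboplatin_72h HSPA5 was -0.012 in both and SEL1L -0.0018 and -0.0016. With all libraries alone, TSA in DTP turned for ATF3 (-0.0031), PHGDH (-0.30) and EDEM1 (-0.29), and the difference in TSA effects for ATF6 (-0.16), CALR (-0.095), DNAJC3 (-0.026) and EDEM1 (-0.18); without DTP_TSA a alone it turned for HSPA5 (0.069).

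HSPA5 with TSA in DTP cells, which was not past the threshold, turned to 0.0091 under DESeq2, 0.0090 with its size factors, 0.058 with at least 1 CPM in 3 libraries, 0.031 with the groups compared alone and 0.13 with spike-ins without DTP_TSA a. The spike-in settings change the library sizes, and the spread is estimated anew under them. The setting without DTP_TSA a also drops that library and filters again, which kept 18094 genes. Why these settings differ from the main one was not tested. Depth limits CHAC1 most, at 59.3 to 658 estimated reads a library. The standard errors given here come from the model and include the spread among these libraries.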
